A study of Mus musculus with 7 samples.

Results

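Plasminogen activation in mouse skin is described here through 5 genes of the 25322 in the deposited table, taken by gene name: the protease genes Plau and Plat, the receptor gene Plaur, and the serpin genes Serpine2 and Serpinf1. All 5 passed the filter on low values, as did 18141 genes in all. The libraries are bulk RNA-seq of tdTomato-positive skin cells sorted on day 36, from 3 control and 4 Zfp750 knockout (Zfp750_KO) samples. By the labels, every mouse carried 1 copy of an Lrig1-CreER or Lrig1-CreERT2 allele, which drives a tamoxifen-dependent Cre in Lrig1-expressing cells of the hair follicle and sebaceous gland, and received 4-hydroxytamoxifen from day 4 to 7 or day 5 to 8 of age. Genotypes are ZNF750 fl/fl in the 4 knockouts, ZNF750 wt/fl in 2 controls and ZNF750 wt/wt in 1 control; Rosa26 is +/- in all but 1 knockout, given as -/-. The deposited columns name the group and a short code but no single labelled sample, so neither the wild-type control nor the Rosa26 -/- knockout could be tied to a column. These codes serve as names here, 4F, 4M and 7F for controls, then 1M, 2M, 3F and 6F for knockouts, and values are given in that order. No label says that a library is 1 mouse, and the p-values thus measure only how these libraries spread, which may be technical.

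Plasminogen is a circulating zymogen that Plau (urokinase, uPA) and Plat (tissue-type activator, tPA) cleave to plasmin, a protease that dissolves fibrin, degrades matrix and activates other proteases. Plaur (uPAR) holds urokinase at the cell surface and is a familiar gene of activated macrophages and migrating keratinocytes. Serpine2 (protease nexin 1) inhibits thrombin, urokinase and tissue-type activator. Serpinf1 (pigment epithelium-derived factor, PEDF) has the serpin fold but is known as a non-inhibitory serpin, so it belongs to the family rather than to the inhibitors of these proteases. In skin the system is best known from wound repair, where keratinocytes and leukocytes use it to cross the fibrin clot.

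Each library held an estimated 9.09 to 17.1 M reads, worked out from the steps between the values. The targeted gene Zfp750 had normalized counts of 51.2 to 335 in controls and 10.1 to 48.9 in Zfp750_KO, without overlap (two-sided exact permutation p = 0.0571, the smallest that 35 splits of 7 libraries allow). Of the library total, 14 fibroblast markers summed to 18770 to 181100 per M and 13 keratinocyte markers to 367 to 3340 per M, with Krt1 at 0 in control 4M and Zfp750_KO 3F. In Zfp750_KO 3F, macrophage and dendritic cell markers (11260 and 11380 per M) together exceeded the fibroblast markers. Lrig1, which drives the Cre, was at 1571, 536 and 472 in controls and at 1620, 1768, 300 and 445 in knockouts, with overlap. Leukocyte RNA differed widely within both groups. Ptprc (CD45) stood at 4.46, 40.1 and 39.2 per M in control 4F and Zfp750_KO 1M and 2M, and at 474, 700, 1247 and 982 per M in control 4M and 7F and Zfp750_KO 3F and 6F. Control 4M, coded M, held both Xist (3318) and the Y-linked Ddx3y (810), whereas the other libraries carried mainly the one that fits their letter. In bulk RNA, fewer cells of a type and less RNA per cell cannot be told apart.

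No gene of the 5 separated controls from knockouts, and none passed the test of genotype. Each instead split the knockouts into 2 pairs, 1M and 2M against 3F and 6F. The letter of the code and the level of Ptprc divided the knockouts alike, so they cannot be told apart across these pairs. Zfp750_KO 1M and 2M, the pair with little Ptprc, had far more Plat and Serpine2 than any control and less Plau. Zfp750_KO 3F and 6F, the pair with much Ptprc, had more Plaur and less Serpinf1 than any control. In normalized counts this pair also lay outside the controls for the other genes. It was under every control for Plat (697 and 434) and Serpine2 (128 and 149), and above every control for Plau (1578 and 1726).

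**Figure D1:**
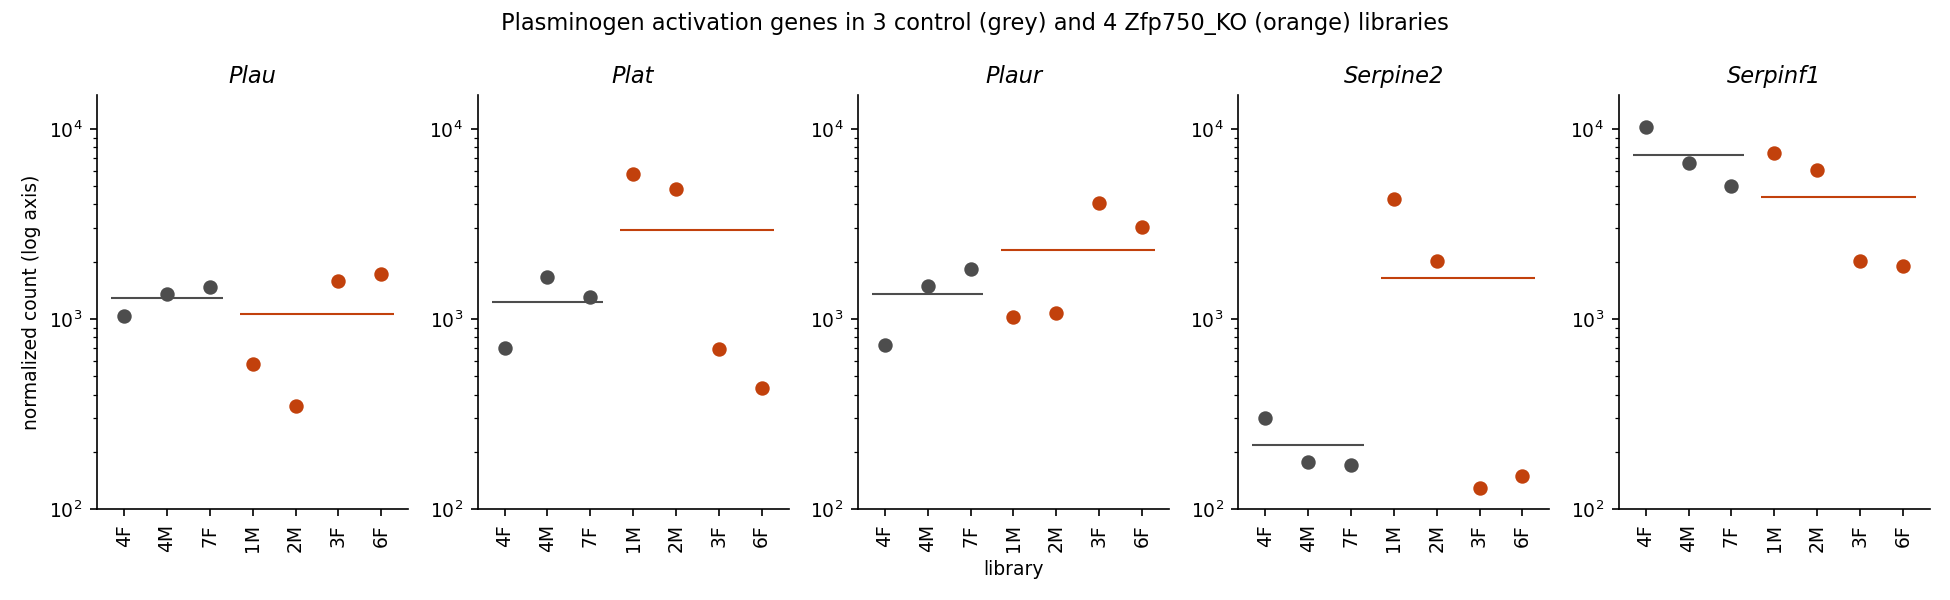
Normalized counts of the 5 genes (log axis) in each of 3 control (grey) and 4 Zfp750_KO (orange) libraries, with the group mean as a line. Zfp750_KO 1M and 2M stand above all controls for Plat and Serpine2 and below them for Plau. Zfp750_KO 3F and 6F stand above all controls for Plaur and Plau and below them for Serpinf1, Plat and Serpine2.

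Of the activators, Plau (ENSMUSG00000021822, chromosome 14) had normalized counts of 1041, 1355 and 1477 in the controls, and 579, 350, 1578 and 1726 in the knockouts. The controls lay between the 2 knockout pairs, so that the groups overlapped. The control mean was 1291 ± 225 (SD, n = 3) and the knockout mean 1058 ± 695 (SD, n = 4). The log2 difference was -0.56 ± 0.56 (SE) in a limma fit over all 18141 genes, with an adjusted p of 1.00, and its two-sided exact permutation p was 0.571.

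Plat (ENSMUSG00000031538, chromosome 8), the activator best known from vessels and nerve, was at 707, 1658 and 1308 in the controls and at 5808, 4837, 697 and 434 in the knockouts. Zfp750_KO 1M and 2M exceeded every control, and 3F and 6F lay under every control. Its means were 1224 ± 481 (SD, n = 3) and 2944 ± 2777 (SD, n = 4). The log2 difference of 0.57 ± 0.96 (SE, limma adjusted p = 1.00) averaged over these opposite shifts. The two-sided exact permutation p was 0.686.

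The receptor gene Plaur (ENSMUSG00000046223, chromosome 7) was at 729, 1497 and 1833 in the controls. In the knockouts it was at 1019, 1079, 4070 and 3028. Zfp750_KO 1M and 2M lay above control 4F, and 3F and 6F above control 4M and 7F. Over all libraries the groups overlapped, with means of 1353 ± 566 (SD, n = 3) and 2299 ± 1505 (SD, n = 4). The log2 difference was 0.60 ± 0.58 (SE, limma adjusted p = 1.00), and the two-sided exact permutation p was 0.4.

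Among the serpins, Serpine2 (ENSMUSG00000026249, chromosome 1) had the widest range of the 5 on the log2 scale. It was low and even in the controls, at 303, 177 and 171 in 4F, 4M and 7F. Zfp750_KO 1M and 2M had 4282 and 2024, and 3F and 6F had 128 and 149, just under the lowest control. These values correspond to an estimated 114 to 4119 reads per library. The means were 217 ± 74.3 (SD, n = 3) and 1646 ± 1970 (SD, n = 4), the log2 difference was 1.59 ± 1.25 (SE, limma adjusted p = 1.00) and the two-sided exact permutation p was 0.571.

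Serpinf1 (ENSMUSG00000000753, chromosome 11), an abundant secreted product of fibroblasts, was at 10281, 6590 and 4980 in the controls and at 7462, 6069, 2020 and 1890 in the knockouts. Zfp750_KO 3F and 6F lay under every control, and 1M and 2M among them. The means were 7284 ± 2718 (SD, n = 3) and 4360 ± 2836 (SD, n = 4). The log2 difference was -0.94 ± 0.57 (SE, limma adjusted p = 1.00), and the two-sided exact permutation p was 0.286.

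In this limma fit with the group as the only term, 0 of the 5 genes passed an adjusted p of 0.05 and 0 had an unadjusted p under 0.05. Over all 18141 genes the shares were 0% and 5.83%. Plat reached -0.02 without Zfp750_KO 1M, and leaving out Zfp750_KO 1M or 2M, or any other library, brought no call for the 5 genes. With array weights, which give less weight to the libraries that vary most, Plau (-1.50, limma adjusted p = 0.0299) and Serpine2 (3.42, adjusted p = 0.0214) passed, together with 3795 of all genes, and Plaur turned to -0.46.

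The order of the genes by level changed with the library as well. Levels were divided by the summed exon length of each gene in GENCODE M21 (2.37 kb for Plau, 6.24 kb for Plat, 2.62 kb for Plaur, 8.29 kb for Serpine2 and 2.36 kb for Serpinf1) and given per M of the library total. On this scale Serpinf1 led in 5 libraries, at 188 to 330 per M per kb. In Zfp750_KO 3F and 6F Plaur led instead, at 144 and 110.8 against 79.5 and 76.7 for Serpinf1. Serpine2 was the lowest of the 5 in all controls and in Zfp750_KO 3F and 6F, at 1.44 to 2.77, but stood at 38.6 and 18.5 in 1M and 2M. Per kb, urokinase RNA exceeded that of tissue-type activator in the 3 controls, where the ratio of Plat to Plau was 0.257 to 0.464. It also did so in Zfp750_KO 3F and 6F, where the ratio was 0.168 and 0.0954. In Zfp750_KO 1M and 2M the ratio was 3.8 and 5.25. The order depends in part on the exon lengths, 6.24 kb for Plat against 2.37 kb for Plau. Undivided counts of Plat exceeded those of Plau in control 4M as well (1658 against 1355), while the other libraries kept the order given. Whether the summed exon length matches the transcripts present was not tested. The ratio of receptor to ligand, Plaur to Plau, was 0.633 to 1.12 in controls and 1.59 to 2.79 in Zfp750_KO, without overlap. The ratio of Serpinf1 to Serpine2 did not overlap either, at 102 to 131 in controls and 6.12 to 55.2 in Zfp750_KO. The ratios of Plat to Plau and of Serpine2 to Plat overlapped. These ratios were picked out after the values were seen and were given no test. How often the ratio of any other pair of genes separates the groups was not worked out.

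**Figure D2:**
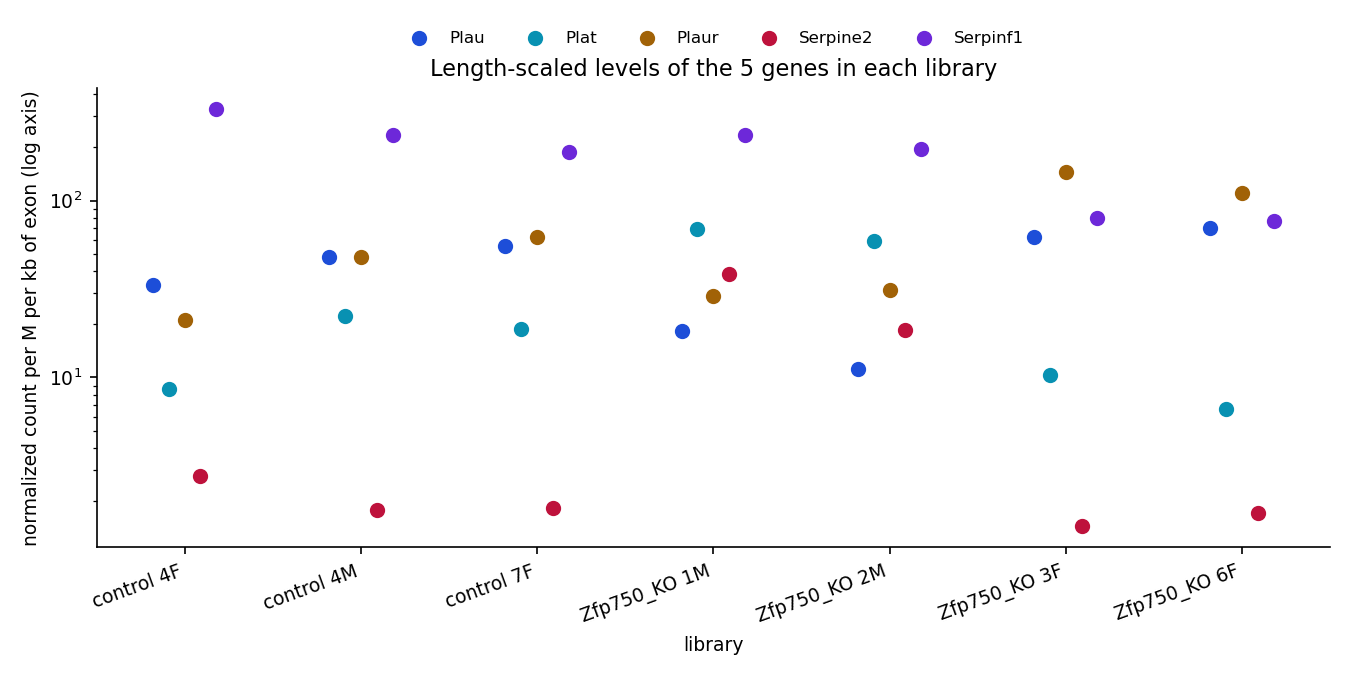
Normalized count per M of the library total and per kb of exon (log axis) for the 5 genes in each of the 7 libraries, 1 point per gene and library. Plat lies above Plau only in Zfp750_KO 1M and 2M, at 69.4 against 18.3 and 58.8 against 11.2, and Plaur lies above Serpinf1 only in 3F and 6F. Without the division by exon length, Plat also exceeds Plau in control 4M (1658 against 1355).

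The libraries were next split at 100 per M of Ptprc, which narrowed but did not match the leukocyte content of the groups. In the 4 libraries with at least 100 per M of Ptprc, control 4M and 7F and Zfp750_KO 3F and 6F, 3 of the 5 genes passed. Plaur rose by 1.08 ± 0.20 (SE, limma adjusted p = 0.00433), Plat fell by 1.40 ± 0.23 (adjusted p = 0.0025) and Serpinf1 fell by 1.55 ± 0.19 (adjusted p = 0.000489) on the log2 scale. Plau differed by 0.22 ± 0.17 and Serpine2 by -0.31 ± 0.25, with adjusted p-values of 0.467 and 0.487. In this fit of 2 against 2 libraries 12.2% of 17214 genes were called, 5.14% higher and 7.02% lower, so calls were common among all genes. The 4 libraries were not alike in composition. Macrophage markers summed to 4960 and 6343 per M in control 4M and 7F and to 11260 and 9476 per M in Zfp750_KO 3F and 6F, dendritic cell markers to 7558 and 9156 against 11380 and 12380 per M, and fibroblast markers to 152800 and 90080 against 18770 and 52200 per M. Both knockouts of this set are coded F, while its controls are 4M, which held both Xist and Ddx3y, and 7F. The letter thus partly follows the genotype here. The part of these marker differences and of the letter in the 3 calls was not tested.

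In the 3 libraries with less Ptprc, control 4F and Zfp750_KO 1M and 2M, a single control allows no test. Serpine2 averaged 3153 in the 2 knockouts against 303 in the control, 10.4 times as much. Plat was 7.53 times and Plaur 1.44 times the control, while Plau was at 0.446 and Serpinf1 at 0.658 of it. For Plat, Plau and Serpine2 the differences therefore had opposite signs in the 2 sets, with log2 differences of 2.89, -1.19 and 3.23 here. Fibroblast markers summed to 111300 and 122800 per M in Zfp750_KO 1M and 2M against 181100 per M in control 4F, while the mean log2 value of the same markers was 14.8 in both knockouts against 14.5 in the control. Leukocyte markers were higher in the knockouts of this set: macrophage markers summed to 650 and 563 against 208 per M, dendritic cell markers to 697 and 327 against 105 per M, and mast cell markers to 92.4 and 90.6 against 11 per M. The smooth muscle and pericyte markers summed to 867 and 967 against 627 per M, endothelial markers to 252 and 249 against 78.2 per M, dermal papilla markers to 681 and 637 against 378 per M, and keratinocyte markers to 3062 and 1287 against 3340 per M; their part in these differences was not tested. Both knockouts of this set are coded M and the control F, and the letter and the genotype cannot be told apart within it. Control 4M, in the other set and also coded M, had 177 of Serpine2. It had much Ptprc and also held Xist, so its value does not bear on the letter in the 3 libraries with less Ptprc.

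**Figure D3:**
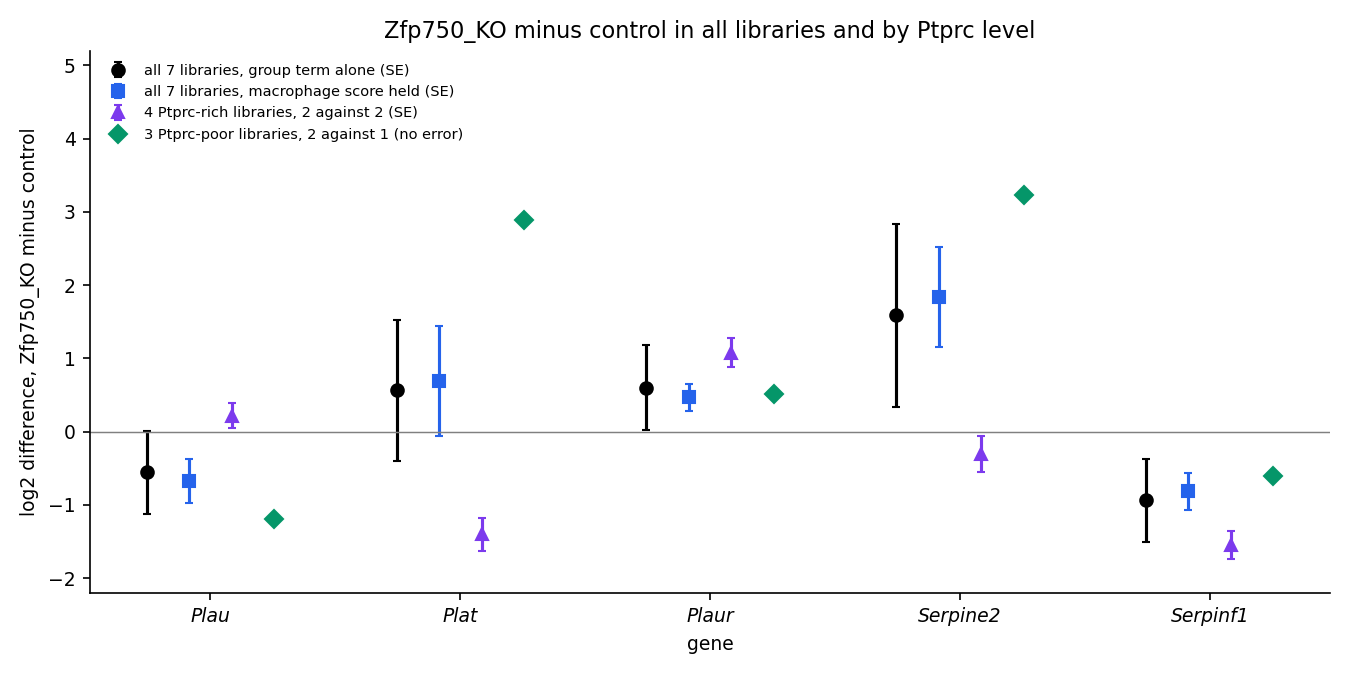
Log2 difference, Zfp750_KO minus control, for each gene in limma fits of all 7 libraries with the group term alone (black) or with the macrophage score held (blue), in the 4 libraries with at least 100 per M of Ptprc (purple; bars are SE) and, with no error, in the 3 with less (green). The green and purple points have opposite signs for Plau, Plat and Serpine2 and the same sign for Plaur and Serpinf1.

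A macrophage score, the mean log2 value of 21 tested macrophage markers, ran from 5.77 in control 4F to 10.2 in control 7F, and from 6.92 in Zfp750_KO 2M to 11.1 in 3F. With the score held as a covariate in a limma fit of all 7 libraries, 0 of the 5 genes passed, where 3.6% of all genes were called. At an unadjusted p under 0.05 there were 3 of the 5, beside 17.5% of all genes. On the log2 scale Serpinf1 differed by -0.82 ± 0.25 (SE, adjusted p = 0.118), Serpine2 by 1.83 ± 0.68 (adjusted p = 0.197) and Plaur by 0.47 ± 0.19 (adjusted p = 0.232). Plau was at -0.67 ± 0.30 (adjusted p = 0.295) and Plat at 0.69 ± 0.75 (adjusted p = 0.71). Serpinf1 passed with quantile normalization, with array weights and with a term for the column letter (-1.01 to -0.93, adjusted p = 0.0402, 0.0164 and 0.0113). Of 18141 genes, these settings called 269, 490 and 535 higher and 448, 722 and 732 lower. Without control 4F, Plaur passed at 0.70 (adjusted p = 0.0152) and Serpinf1 at -1.15 (adjusted p = 0.00212), while Plat moved to -0.68 (adjusted p = 0.108), Plau to -0.18 and Serpine2 to 0.65. More genes were called in that setting, 600 of 17924 higher and 971 lower.

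The fit with the macrophage score held gives both genotypes the same slope on the score. A term for the product of genotype and score, added after seeing the data, passed for Plat (-1.07 ± 0.11 log2 per unit of score, SE, limma adjusted p = 0.000157), Serpine2 (-0.93 ± 0.13, adjusted p = 0.00149) and Plau (0.38 ± 0.08, adjusted p = 0.0107). It did not pass for Serpinf1 (-0.26 ± 0.08, adjusted p = 0.0801) or Plaur (0.18 ± 0.07, adjusted p = 0.161). Of all genes 6.13% were called, and 18.8% had an unadjusted p under 0.05, as did all 5 of these. Among the controls only 4F has a low score, so their slope rests on that library: without it the terms for Plat, Serpine2 and Plau were 0.71, -0.89 and -0.07 with adjusted p-values of 1, and Plau also lost its call without control 4M (adjusted p = 0.0604).

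**Figure D4:**
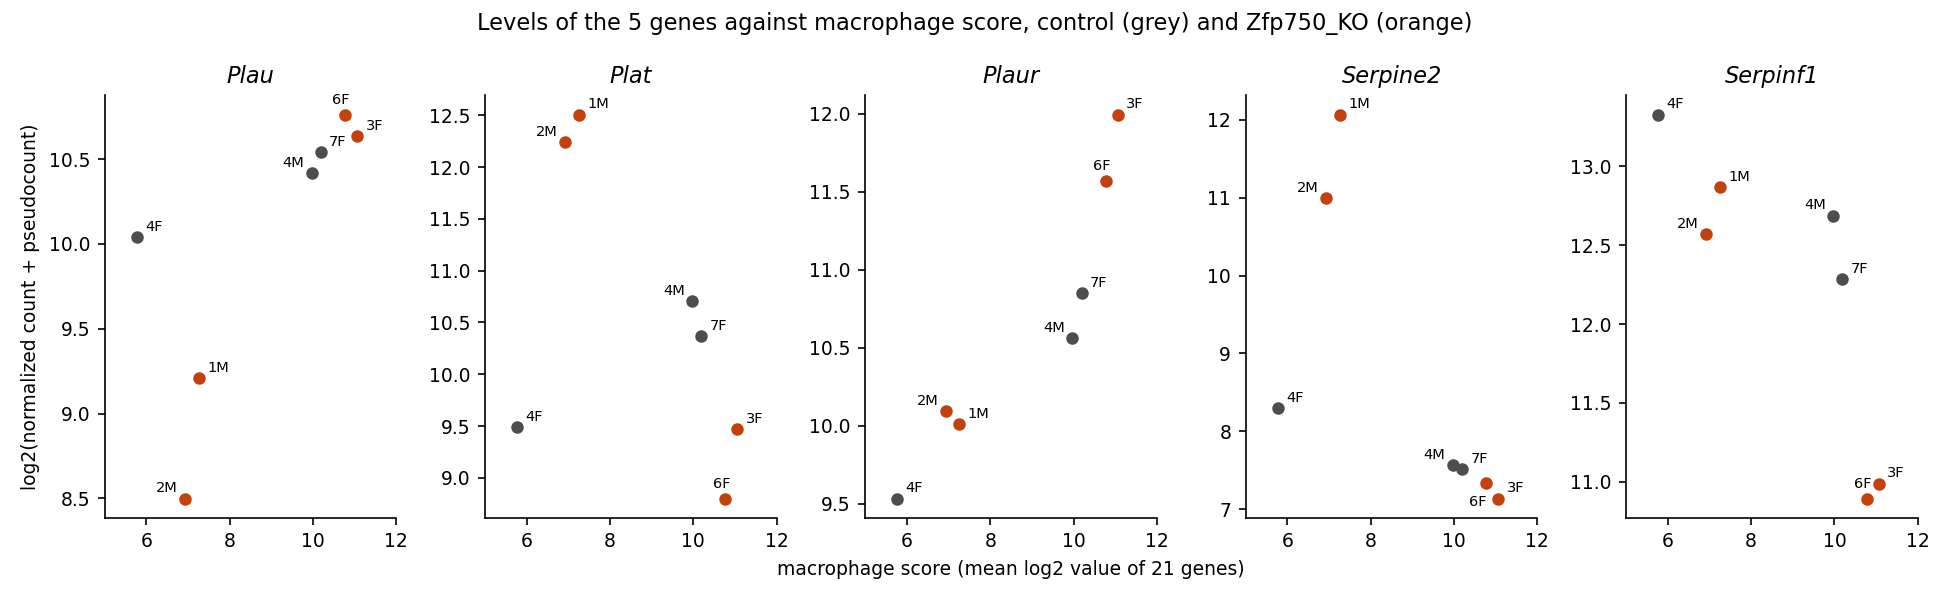
Log2(normalized count + 11.9) of each gene against the macrophage score of the library, with controls in grey and Zfp750_KO in orange. Plaur is higher in the libraries with high scores in both groups, whereas at the low scores of 6.92 and 7.26 Zfp750_KO 2M and 1M lie far above control 4F for Plat and Serpine2 and below it for Plau.

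Serpinf1 and Serpine2 differed in how they followed fibroblast RNA. Per 1000 counts of the 14 fibroblast markers, Serpinf1 was at 3.61 to 4.93 in controls, at 3.47 to 5 in Zfp750_KO 1M, 2M and 6F, and at 9.99 in 3F. Serpine2 was at 0.0972 to 0.169 in controls and at 2.87, 1.25, 0.636 and 0.273 in the knockouts, so that on this scale all knockouts lay above all controls, as did 13.8% of all genes tested. The fibroblast sum itself was lower in Zfp750_KO 3F and 6F than in any control, and the undivided Serpine2 values of these libraries lay under every control. Col1a1 weighs heavily in the sum, at 81020 of 181100 per M in control 4F. Its counts were lower in 3F than in 6F (59036 against 243780), whereas those of Dcn were higher (10407 against 7169). In a limma fit with a fibroblast score (the mean log2 value of these markers) in place of the macrophage score, Serpine2 rose by 2.32 ± 0.29 (SE, adjusted p = 0.00799), where 2.97% of all genes were called and 1.86% were called higher. It kept the call without any 1 of the 7 libraries, at 1.95 to 2.60 with adjusted p-values of 0.000229 to 0.0462. Calls over all genes varied widely between these fits. They were fewest without Zfp750_KO 2M (60 higher and 16 lower) and most without control 4F (1415 higher and 1894 lower). No knockout lay inside the range of the controls on this score: the controls stood at 13.7 to 14.5, Zfp750_KO 3F and 6F at 12.4 and 12.7, and 1M and 2M at 14.8, so the fit rests on a straight line drawn beyond the controls. Plau (-0.87 ± 0.20, adjusted p = 0.071), Plat, Plaur and Serpinf1 (-0.62 ± 0.17, adjusted p = 0.118) did not pass in the fit of all 7 libraries. Without control 4F, Plau and Serpinf1 passed, with limma adjusted p-values of 0.0129 and 0.0423. Calls were common in that setting, where 1415 of 17924 genes were called higher and 1894 lower.

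Plaur was also set beside macrophage RNA. Per 1000 counts of the 22 macrophage markers it was at 25.3 and 25.8 in control 4M and 7F and at 33.6 and 30.6 in Zfp750_KO 3F and 6F. In the libraries with little Ptprc it was at 265 in control 4F and at 117 and 145 in Zfp750_KO 1M and 2M. Neutrophils are another source of uPAR, and 5 of 8 listed neutrophil markers were in the table. These markers summed to 0.293 to 13.8 per M in controls and to 6.16 to 91.1 per M in Zfp750_KO. Cxcr2, Mmp8 and S100a9 were at 0 in control 4F, and S100a9 in control 4M. The part of neutrophil RNA in the Plaur values was not tested.

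The genes whose patterns over the 7 libraries came closest were taken by the smallest root mean square difference of centred log2 values among 11280 genes. For Plat these were Itga11, a collagen-binding integrin subunit (0.30), Slco5a1 (0.36) and Col6a3, a chain of collagen VI (0.36). Itga11 had 708, 987 and 984 in the controls against 5834, 5400, 660 and 483 in the knockouts. For Serpine2 they were Tbx3, a T-box transcription factor (0.22), Srpx2, a secreted sushi-domain protein that binds uPAR (0.26), and Sorcs2, a sortilin-family receptor (0.33). Tbx3 had 87.7 to 125 in controls, 1562 and 1053 in Zfp750_KO 1M and 2M, and 59.7 and 61.3 in 3F and 6F. Plau was nearest to Chn2 (0.16), Map3k5 (0.17) and Znrf2 (0.19). Plaur was nearest to Galc, a lysosomal galactosidase (0.09), Zfp263 (0.11) and Arid3b (0.14), and Serpinf1 to Fam114a1 (0.14), Ptgfrn (0.17) and Serping1, the C1 inhibitor (0.19). These distances are descriptions of 7 libraries that share a range of cell composition.

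Promoters of 3 of the 5 genes, from RefSeq on GRCm38.p6, are shown as those matched by gene symbol in the reference table. Plaur was highest in Zfp750_KO 3F and 6F, Serpine2 was highest in 1M and 2M, and Serpinf1 was lowest in 3F and 6F. Each runs from 250 bases before to 50 after the annotated start site on the gene's strand, at chr7:24462233-24462532 (plus strand) for Plaur, chr1:79858616-79858915 (minus strand) for Serpine2 and chr11:75422574-75422873 (minus strand) for Serpinf1. Capitals mark matches on either strand to TGANTCA (the AP-1 motif), to GGGCGG (the GC box), to TATAAA (the TATA box) or to CCAAT (the CCAAT box), and neighbouring GC boxes can share bases.
Plaur: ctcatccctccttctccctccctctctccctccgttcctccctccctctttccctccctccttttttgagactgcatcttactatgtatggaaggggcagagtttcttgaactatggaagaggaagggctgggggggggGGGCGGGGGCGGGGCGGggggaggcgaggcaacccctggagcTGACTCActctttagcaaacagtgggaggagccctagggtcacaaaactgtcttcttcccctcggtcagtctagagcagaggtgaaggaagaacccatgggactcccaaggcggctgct
Serpine2: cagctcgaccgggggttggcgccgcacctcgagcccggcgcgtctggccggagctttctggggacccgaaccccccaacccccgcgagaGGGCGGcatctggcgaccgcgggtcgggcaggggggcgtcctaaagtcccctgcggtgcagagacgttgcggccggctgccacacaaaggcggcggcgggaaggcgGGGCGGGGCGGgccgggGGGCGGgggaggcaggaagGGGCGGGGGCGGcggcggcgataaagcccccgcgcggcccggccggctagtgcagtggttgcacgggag
Serpinf1: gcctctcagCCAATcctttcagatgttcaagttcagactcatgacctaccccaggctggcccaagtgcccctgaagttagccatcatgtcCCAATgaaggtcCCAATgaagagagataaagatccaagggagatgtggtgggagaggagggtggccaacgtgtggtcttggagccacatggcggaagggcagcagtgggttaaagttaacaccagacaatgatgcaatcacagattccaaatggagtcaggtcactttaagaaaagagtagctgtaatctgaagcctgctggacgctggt
The Plaur window holds 1 AP-1 match, which begins at -69 from the start site, and 3 GC boxes. An AP-1 match occurs in 7.81% of 32851 promoter windows of this length. The Serpine2 window, 77.7% G and C, holds 6 GC boxes and no AP-1 match, and 35.7% of all windows hold a GC box. The Serpinf1 window holds 3 CCAAT matches and no match to the others, and 37.4% of all windows hold at least 1 CCAAT match. TATAAA, present in 13.6% of windows, is in none of the 3. These are matches of letters and say nothing of binding.

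Of 28 further genes listed (plasminogen, other inhibitors, receptors and carriers) 23 were in the table and tested, and plasminogen itself (Plg) was not in the table. With the group term alone 0 passed, and with the macrophage score held 0 were higher and 1 lower, with a median log2 difference of 0.01 beside 0.02 over all genes. Over all genes in that fit 1.40% were called higher and 2.20% lower. The gene called was Clec3b (tetranectin), a plasminogen-binding protein, which fell by 2.20 ± 0.32 (SE, limma adjusted p = 0.00838). Its counts were 4185, 3251 and 2873 in the controls and 871, 371, 949 and 989 in the knockouts. Every knockout was under every control, as in 3.91% of all genes tested, and the call held without any 1 library (highest adjusted p = 0.0493). Named for their roles after their values were seen, the plasminogen receptor subunits Anxa2 and S100a10 were at 0.01 ± 0.16 and 0.06 ± 0.16 (SE) in the same fit. Eno1, of the same list and also named after its values were seen, was at 0.60 ± 0.16 (SE, limma adjusted p = 0.074). Its knockouts, at 1821 to 3284, all exceeded its controls, at 1453 to 1682, as in 3.19% of all genes tested. Lrp1, the endocytic receptor that clears protease and inhibitor complexes, was at 0.00052 ± 0.28.

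Serpinb2, a serpin that inhibits urokinase and was likewise named after its values were seen, was at 98.3, 10.5 and 12.4 in the controls and at 99.8, 67.6, 90.2 and 53 in Zfp750_KO, with a log2 difference of 1.25 ± 0.40 (SE, limma adjusted p = 0.137) with the macrophage score held. The knockouts with much Ptprc lay above the controls of that set, and 1M and 2M lay on either side of control 4F.

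Among 20 substrates and targets of plasmin 15 were tested; with the macrophage score held 3 rose and 0 fell, beside 1.40% and 2.20% of all genes, and the median was 0.41 beside 0.02. With the group term alone 0 passed. Hgf, a growth factor activated by cleavage, rose by 1.16 ± 0.21 (SE, limma adjusted p = 0.0188), from 95.2 to 123 in controls to 191 to 299 in Zfp750_KO. All knockouts exceeded all controls for Hgf, as in 3.19% of all genes tested. Mmp12, a macrophage elastase, rose by 2.19 ± 0.27 (adjusted p = 0.00395). Mmp13, a collagenase, rose by 4.86 ± 1.04 (adjusted p = 0.0382), again with its highest values, 8728 and 3510, in Zfp750_KO 1M and 2M. Mmp12 kept its call without any 1 library, whereas Hgf and Mmp13 kept theirs only without control 4F or Zfp750_KO 6F. Over these fits their adjusted p-values reached 0.107 and 0.0988. Mmp13 also lost its call with robust eBayes (adjusted p = 0.147), without a trend (0.063), with a filter of 5 per M (0.0525) and with 4 times the pseudocount (0.0513).

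Of 20 coagulation and thrombin genes, the proteases that Serpine2 acts on and their receptors among them, 18 were tested. With the macrophage score held 3 rose and 0 fell, beside 1.40% and 2.20% of all genes, with a median of 0.24, and with the group term alone 0 passed. F2r, the thrombin receptor PAR1, rose by 2.75 ± 0.47 (SE, limma adjusted p = 0.0161), at 1352, 484 and 537 in the controls and 15112, 15952, 1036 and 1082 in the knockouts. The protease-activated receptor gene F2rl1 rose by 1.78 ± 0.36 (adjusted p = 0.0313) and the clotting factor gene F5 by 1.87 ± 0.39 (adjusted p = 0.0357). Both F2r and F2rl1 were highest in Zfp750_KO 1M and 2M. F2r lost its call without control 4M or Zfp750_KO 2M (highest adjusted p = 0.0704), and F2rl1 and F5 lost theirs without control 4M or Zfp750_KO 1M, 2M or 3F, up to 0.137 and 0.181. Without a trend F2rl1 (0.0554) and F5 (0.0619) did not pass, nor did F5 with robust eBayes (0.0673).

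Of 27 regulators known to induce or repress activator genes 26 were tested. With the macrophage score held 3 rose and 1 fell, beside 1.40% and 2.20% of all genes, and with the group term alone 0 passed. Osm, a cytokine of macrophages and neutrophils, rose by 2.20 ± 0.19 (SE, limma adjusted p = 0.00288) and Ets1, a transcription factor, by 1.42 ± 0.15 (adjusted p = 0.00329), and both kept the call without any 1 library. Il1b rose by 0.82 ± 0.16 (adjusted p = 0.0266) and Tgfb2 fell by 1.34 ± 0.25 (adjusted p = 0.0223). Il1b kept the call only without control 4F or Zfp750_KO 6F, and Tgfb2 only without control 4F or Zfp750_KO 1M or 2M. Over these fits their adjusted p-values reached 0.15 and 0.131. Il1b did not pass without a trend either (0.0619). The list's median was 0.11.

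The serpin family had 38 genes in the table, Serpine2 and Serpinf1 among them, and 25 were tested. With the macrophage score held 2 rose and 1 fell, beside 1.40% and 2.20% of all genes, and the median was 0.10. With the group term alone 0 passed. Serpina10, an inhibitor of factor Xa, rose by 2.53 ± 0.56 (SE, limma adjusted p = 0.0447), at 3.94 to 17 in controls and 374, 326, 11.3 and 24.1 in the knockouts. Serpina3n rose by 0.87 ± 0.19 (adjusted p = 0.038) and Serpina3c fell by 1.25 ± 0.24 (adjusted p = 0.0236). Members of the Serpina3 cluster are near-identical copies, so the split of reads between them is uncertain. Without control 4M or 7F all 3 lost the call, as did Serpina10 without Zfp750_KO 1M, 2M or 6F, Serpina3n without 1M, 3F or 6F, and Serpina3c without 2M (adjusted p up to 0.132, 0.164 and 0.129 over the fits without 1 library). Without a trend Serpina10 (0.0651) and Serpina3n (0.0651) did not pass, nor did Serpina10 with robust eBayes (0.0733) or 4 times the pseudocount (0.0703), or Serpina3n with quantile normalization (0.0737).

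**Figure D5:**
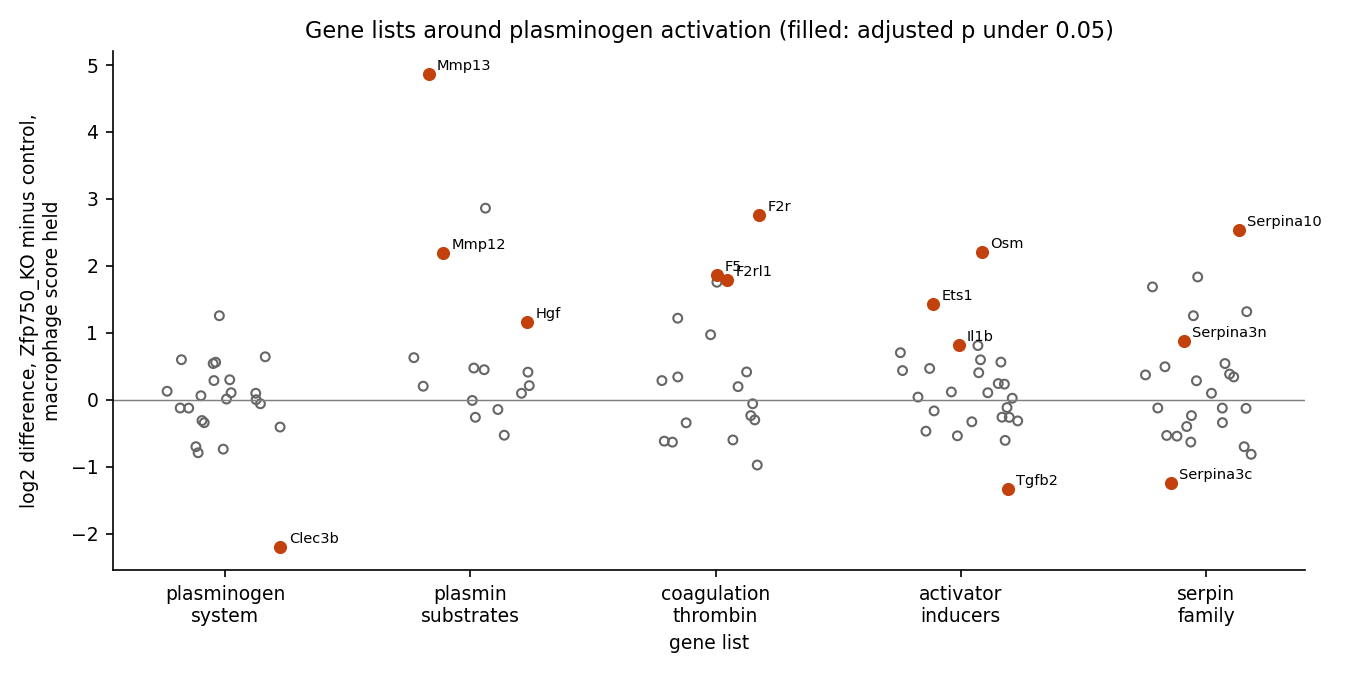
Log2 difference, Zfp750_KO minus control, with the macrophage score held, for each tested gene of the 5 lists; filled, labelled points have an adjusted p under 0.05 and open points do not. Each list has 1 to 4 filled points, and the open points spread on both sides of 0.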

How the data were processed

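The authors deposited 1 table of normalized counts, a signal and not raw counts, for 7 libraries; TopHat2 2.1.0 and Partek 9.0.20.0202 are named per the submitters' processing notes, with the build, strand setting and normalization method not given in the sources used here. Columns were assigned to groups by their names. Below 200 reads, 77.9% to 79.5% of a library's values fell on whole multiples of 1 step (tolerance 0.02 reads), so whole reads were not recovered and no count test was run; read numbers given are estimates, values divided by these steps. Values were analysed as log2(value + 11.9), 1 per M of the median column total, which understates the change of low genes. Genes with at least 1 per M in at least 3 libraries were fitted with limma 3.58.1 in R 4.3.3 (eBayes with trend, Benjamini-Hochberg over all genes tested, threshold 0.05), first with the group alone, then with the macrophage score. Single genes were also tested by exact permutation in scipy 1.17.1. Only the fit with the group alone was tested on simulated data, which had independent noise and no differences in cell composition.

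Named genes are the 5 members and Zfp750, up to 4 called genes of each list with the largest difference, and the 3 nearest patterns per member (mean of at least 5 per M, predicted genes left out). The members, lists and second fit were chosen with earlier results of these data known. Alternatives were other pseudocounts, filters, scalings, moderation, weights and scores, a term for the column letter, and leaving out each library. Deposited positions name no build, so chromosomes alone are given. A gene counted in the lists is not reported here by name.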

Additional observations from a re-analysis of the deposited data

How the results depend on the processing

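With the group term alone, pseudocount, filter, scaling, moderation and the column letter changed no direction and no call of the 5 genes. Array weights did: Plau was at -1.50 (adjusted p = 0.0299) and Serpine2 at 3.42 (adjusted p = 0.0214), both past the threshold, Plaur at -0.46 and Serpinf1 at 0.053. The calls then numbered 8 in the plasminogen, 5 in the plasmin substrate, 8 in the coagulation, 6 in the inducer and 9 in the serpin list, and 3795 over all genes, against 0 in each. In the 4 libraries with much Ptprc the differences of Plau, Plat, Plaur, Serpine2 and Serpinf1 were 0.22, -1.40, 1.08, -0.31 and -1.55, with 2092 calls over all genes. Without 1 library they ran from -0.89 to -0.13, -0.016 to 1.22, 0.21 to 0.91, 0.69 to 2.34 and -1.28 to -0.63, and no gene of any list was called.

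With the macrophage score held, Serpinf1 passed with quantile normalization (-1.01, adjusted p = 0.0402), array weights (-0.98, adjusted p = 0.0164) and the column letter (-0.93, adjusted p = 0.0113), and Plat was at -0.081 with array weights. With the fibroblast score in place Serpine2 passed at 2.32. Without 1 library Plau ran from -0.86 to -0.18, Plat from -0.68 to 1.26, Plaur from 0.32 to 0.70, Serpine2 from 0.65 to 2.31 and Serpinf1 from -1.15 to -0.60. Calls numbered 1, 3, 3, 4 and 3 in the plasminogen, substrate, coagulation, inducer and serpin lists. Without 1 library they ran from 1 to 7, 1 to 6, 0 to 8, 2 to 7 and 0 to 9, each highest without control 4F. The plasminogen list had 2 with quantile normalization, 5 with array weights and 4 with the column letter. The coagulation list had 1 without a trend, 8 with array weights and 7 with the letter, and the inducer list 7 with array weights. The serpin list had 5 with quantile normalization, 1 without a trend, 8 with array weights and 8 with the letter. Over all genes 653 were called, 1212 with array weights, 1267 with the letter, 413 with Ptprc alone as the score and 157 to 1571 without 1 library.

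The product of genotype and score ran without 1 library from -0.074 to 0.45 for Plau, -1.20 to 0.71 for Plat, -0.87 to 0.22 for Plaur, -1.14 to -0.77 for Serpine2 and -0.32 to 1.38 for Serpinf1. With the fibroblast score held the ranges were -1.10 to -0.62, 0.49 to 1.43, 0.06 to 0.40, 1.95 to 2.60 and -0.72 to -0.51. The causes of these changes were not tested. Both of these fits without 1 library, and the product term, were chosen after seeing the data. TMM scaling was computed with unweighted trimmed means. No paired analysis was possible because the columns match no sample title and no number in their codes is shared between the groups. Depth limits the 5 genes little, since each had at least an estimated 114 reads in every library.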
